A study of Rattus norvegicus with 15 samples.

Results

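The circadian clock genes Arntl, Per1, Per2, Nr1d1 and Dbp were read in RNA-seq counts of rat lumbar spinal cord. The 5 members were taken by Ensembl identifier (ENSRNOG00000014448, ENSRNOG00000007387, ENSRNOG00000020254, ENSRNOG00000009329 and ENSRNOG00000021027, in that order), from tables of 34202 rows in each of 15 libraries. All 5 were found in every table, and all 5 passed the filter on low counts that left 16522 genes. The rule names the identifiers and uses no measured value.

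The rats were adult male Sprague-Dawley animals of 180 to 200 g, kept on 12 h of light and 12 h of dark, and each of 5 groups held 3 libraries. Sham rats had the left sciatic nerve exposed and not ligated. The other 4 groups carried a chronic constriction injury (CCI), made with 4 loose ligatures around that nerve, and for CCI rats the labels name no preparation. The study's title names the Yuan-Hu Zhi Tong Prescription, and the remaining groups received the preparations labelled YZP (10.8 g of crude drug per kg), YH (7.2 g per kg) and BZ (3.6 g per kg). Dosing ran for 5 days, on postoperative days 6 to 10. The L4-L6 cord of the injured side was collected on postoperative day 10. The labels name no vehicle for CCI rats and no hour of collection. The members were compared by library and group because their levels follow the daily cycle, and whether the hour of collection differed between rats or groups was not tested.

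In mammalian cells the clock is a transcription loop that runs in nearly every tissue and follows the daily cycle. The protein of Arntl (also named Bmal1), paired with CLOCK, binds E-box sequences and activates the Per genes, Nr1d1 and Dbp. The PER proteins, with the CRY proteins, repress that activity. The protein of Nr1d1 (REV-ERB alpha) represses Arntl through elements that it shares with the ROR receptors. DBP is an output factor that activates genes with D-box sequences, the Per genes among them. In peripheral tissues Arntl therefore peaks roughly opposite to Nr1d1 and Dbp, and Per1 also responds acutely to glucocorticoids and to cAMP signals.

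The windows of 300 bases around the annotated start sites show which of these letters lie there, and do not cover the rest of each gene. Windows are printed for the members that hold a match, and for Dbp, the member with which Nr1d1 correlated most highly. They come from the RefSeq promoter table on GRCr8, which held all 5 members (Arntl as Bmal1) with 300 bases each and 2 start sites for Nr1d1. This build is not that of the count tables. Capitals mark matches, on either strand, to the E-box CACGTG, its variant CACGTT, the D-box words TTATGTAA and TTACGTAA, the ROR element TAGGTCA with the core AGGTCA inside it, and the cAMP element TGACGTCA with the core TGACG inside it. The windows lie at chr1:176766078-176766377 (plus strand) for Arntl, chr9:99496944-99497243 (minus strand) for Per2, chr10:84231763-84232062 (minus strand) and chr10:84229405-84229704 (minus strand) for Nr1d1, and chr1:105312006-105312305 (plus strand) for Dbp.
Arntl: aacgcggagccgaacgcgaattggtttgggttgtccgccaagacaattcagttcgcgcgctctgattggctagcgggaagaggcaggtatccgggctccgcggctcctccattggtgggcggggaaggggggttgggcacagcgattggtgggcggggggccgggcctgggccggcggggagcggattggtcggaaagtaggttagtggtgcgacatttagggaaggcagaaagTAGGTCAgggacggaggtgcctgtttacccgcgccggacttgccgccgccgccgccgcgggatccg
Per2: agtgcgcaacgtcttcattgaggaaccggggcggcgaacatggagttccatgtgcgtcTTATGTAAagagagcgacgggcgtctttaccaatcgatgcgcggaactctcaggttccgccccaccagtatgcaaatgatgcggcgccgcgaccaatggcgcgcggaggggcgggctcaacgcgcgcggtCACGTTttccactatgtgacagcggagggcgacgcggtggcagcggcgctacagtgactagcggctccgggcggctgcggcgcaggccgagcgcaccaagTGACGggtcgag
Nr1d1 first start: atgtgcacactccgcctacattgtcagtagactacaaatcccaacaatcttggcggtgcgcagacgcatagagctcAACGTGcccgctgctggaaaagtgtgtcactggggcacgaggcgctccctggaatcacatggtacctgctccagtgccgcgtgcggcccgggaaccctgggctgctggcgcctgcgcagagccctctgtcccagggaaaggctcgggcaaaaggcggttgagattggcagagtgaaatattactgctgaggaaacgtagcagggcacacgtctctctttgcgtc
Nr1d1 second start: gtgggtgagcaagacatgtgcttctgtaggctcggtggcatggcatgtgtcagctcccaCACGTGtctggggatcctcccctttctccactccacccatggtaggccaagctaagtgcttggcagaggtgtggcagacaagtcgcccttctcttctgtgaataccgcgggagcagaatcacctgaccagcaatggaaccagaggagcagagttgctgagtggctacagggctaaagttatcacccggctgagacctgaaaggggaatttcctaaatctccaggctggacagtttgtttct
Dbp: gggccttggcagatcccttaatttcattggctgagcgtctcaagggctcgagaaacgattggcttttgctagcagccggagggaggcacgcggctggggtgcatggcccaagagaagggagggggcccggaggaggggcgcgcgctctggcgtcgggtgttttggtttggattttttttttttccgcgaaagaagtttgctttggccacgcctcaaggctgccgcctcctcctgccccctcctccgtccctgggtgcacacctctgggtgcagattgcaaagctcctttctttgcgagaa
The Arntl window held the ROR element, with its first base 16 bases before the start, and 2.63% of all 33469 windows held it. The Per2 window held the E-box variant, 62 bases before the start, and a D-box word, 192 bases before it. Of all windows 4.83% held the E-box variant and 1.01% held either D-box word. A cAMP core in the Per2 window lay 39 bases after the start, and 21.2% of windows held that core. The Nr1d1 windows held the E-box variant (first start, reverse strand, 174 bases before) and the E-box itself (second start, 191 bases before), which was in 6.42% of windows. The Dbp and Per1 windows held none of these letters, and that of Per1 is not printed. Elements outside the windows were not searched, so this does not show that either gene lacks them. Of the other letters searched, the core AGGTCA was in 16.2% of windows and the full cAMP element in 1.83%. A match is a description of letters and does not show binding.

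Library totals ranged from 15093246 to 22757104 counts, and the members were counted with 227 (Arntl) to 2843 (Dbp) reads in a library. Values below are CPM, the counts divided by the TMM-scaled library size, and fold changes are between groups of 1 gene, since CPM does not correct for gene length. In bulk cord, fewer cells of a type and less RNA per cell cannot be told apart. Cell type markers could not be matched to the identifiers, so the tissue label was not checked against them. In the RefSeq table Nr1d1 overlaps Thra, a thyroid hormone receptor gene, and Per2 overlaps LOC134480412. Whether strand was used in counting is not stated, and without it reads of overlapping genes cannot be told apart.

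No clock gene passed the test in any comparison between groups. The edgeR quasi-likelihood test, adjusted over all 16522 genes at 0.05, called 0 of 5 members in each of 10 pairwise comparisons. The smallest adjusted p over these 50 member tests was 0.167. An unadjusted edgeR p under 0.05 was reached in 9 of the 50, namely 5 times by Per2, 3 times by Per1 and 1 time by Nr1d1. DESeq2 also called 0 members in each comparison. Limma voom with sample quality weights, which gives less weight to more variable libraries, called 1 member, Per2 in CCI against Sham.

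These counts are read against the share of all genes called in the same comparison. For edgeR and limma the share is of 16522 genes. For DESeq2 it is of the genes given an adjusted p, from 14405 to 23928 over the comparisons, so its shares have other denominators. In CCI against Sham, edgeR called 0.0182% of genes, DESeq2 3.42% and limma with quality weights 5.69%, and 17.9% had an unadjusted edgeR p under 0.05. Against CCI, in the order CCI+YZP, CCI+YH and CCI+BZ, edgeR called 0.00605%, 0% and 0% of genes, DESeq2 0.0968%, 0.0849% and 0.125%, and limma with quality weights 0.0121%, 0% and 0%. In the same order 6.94%, 5.59% and 6.63% of genes had an unadjusted edgeR p under 0.05. Against Sham, in that order, edgeR called 0.0666%, 0.0424% and 0% of genes, DESeq2 1.22%, 1.42% and 0.127%, and limma with quality weights 0.702%, 0.950% and 0%. The shares at an unadjusted edgeR p under 0.05 were 11.0%, 13.1% and 7.83%. Between preparations (CCI+YZP against CCI+YH, CCI+YZP against CCI+BZ, CCI+YH against CCI+BZ), edgeR called 0%, 0.0182% and 0.0424% of genes, DESeq2 0.00836%, 0.134% and 0.247%, and limma with quality weights 0%, 0.0182% and 0.0182%. There 3.56%, 5.10% and 5.44% of genes had an unadjusted edgeR p under 0.05. Few genes of any kind were called by edgeR, so 0 called members is close to this background.

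The test of any difference among the 5 groups called 0 members and 0.0908% of all genes. Its edgeR adjusted p was 0.373 for Per2, 0.476 for Per1, 0.63 for Nr1d1, 0.829 for Dbp and 0.924 for Arntl. An unadjusted edgeR p under 0.05 was reached by 2 of the 5 members, Per2 and Per1, and by 10.5% of all genes.

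**Figure D1:**
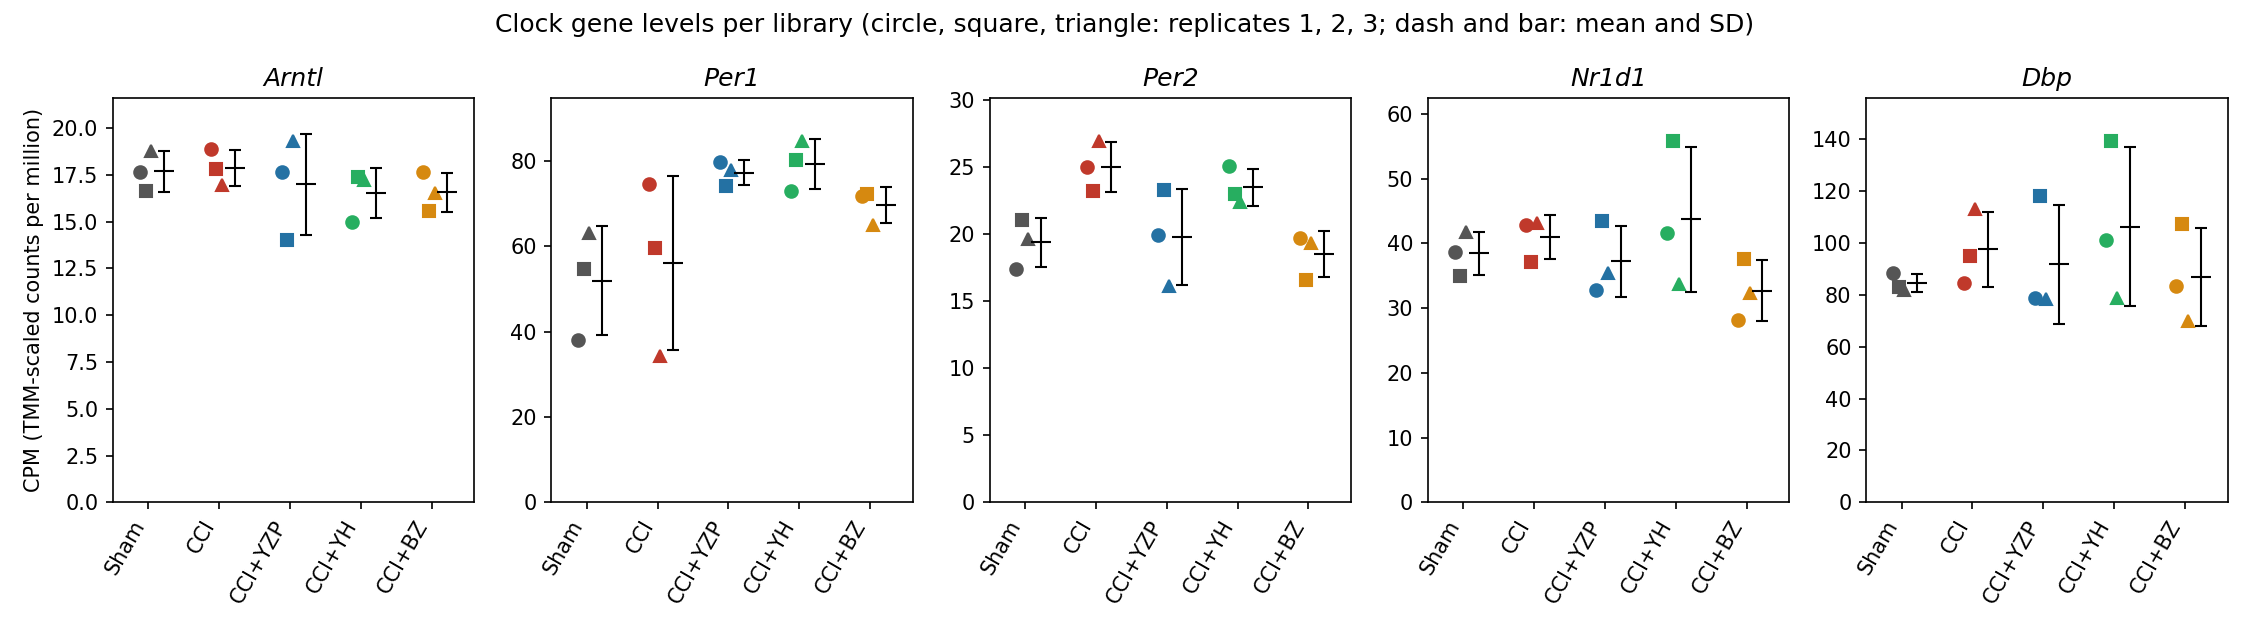
Level of each clock gene (vertical axis, CPM from 0) in the 15 libraries by group, with circle, square and triangle for replicates 1, 2 and 3, and the mean and SD beside them. Per1 is low in Sham replicate 1 (38.0 CPM) and CCI replicate 3 (34.3 CPM), Per2 in CCI lies above Sham, and Arntl lies between 14.0 and 19.3 CPM throughout.

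Arntl, the activator of the loop, was the most even of the 5. It stood at 17.7, 16.6 and 18.8 CPM in Sham libraries and at 18.9, 17.8 and 17.0 CPM in CCI libraries. CCI+YZP libraries held 17.7, 14.0 and 19.3 CPM, CCI+YH libraries 15.004, 17.4 and 17.2 CPM, and CCI+BZ libraries 17.6, 15.6 and 16.5 CPM. Both the lowest and the highest of the 15 libraries belonged to CCI+YZP, and every pair of groups overlapped. Group means ran from 16.5 ± 1.33 CPM in CCI+YH to 17.9 ± 0.955 CPM in CCI (SD, n = 3 each), and no neighbours in that order differed beyond their spread. CCI against Sham gave a log2 fold change of 0.016 (SE 0.110, 95% interval -0.22 to 0.25, edgeR adjusted p = 0.953). Over the 10 comparisons the largest fold lying inside any of the 95% intervals was 1.27. These intervals are not adjusted for the number of tests.

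Per1, a repressor of the loop, had its 2 lowest values in libraries without treatment. It stood at 38.0, 54.7 and 63.1 CPM in Sham and at 74.7, 59.6 and 34.3 CPM in CCI. CCI+YZP libraries held 79.9, 74.2 and 77.9 CPM, CCI+YH libraries 73.1, 80.3 and 84.6 CPM, and CCI+BZ libraries 71.9, 72.3 and 65.0 CPM. Every treated library lay above every Sham library, and CCI replicate 1 lay among the treated ones. The order of group means was Sham (51.9 ± 12.8 CPM), CCI (56.2 ± 20.4), CCI+BZ (69.7 ± 4.11), CCI+YZP (77.3 ± 2.88) and CCI+YH (79.4 ± 5.83), as SD with n = 3 each. Neighbours in this order overlapped, except that CCI+BZ lay wholly below CCI+YZP, where 4.68% of all genes did not overlap in that direction.

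Against Sham, the log2 fold change of Per1 was 0.61 in CCI+YH (SE 0.217, 95% interval 0.15 to 1.08, edgeR adjusted p = 0.259). It was 0.58 in CCI+YZP (SE 0.217, edgeR adjusted p = 0.339) and 0.43 in CCI+BZ (SE 0.216, edgeR adjusted p = 0.655). The libraries did not overlap in any of these 3 comparisons, as for 9.50%, 8.98% and 5.34% of all genes in the same direction. Without Sham replicate 1 the value for CCI+BZ was 0.24. The 3 comparisons share the Sham libraries. Leaving out each library in turn gave values as low as 0.43 in CCI+YH and 0.39 in CCI+YZP. Over alternative analyses the adjusted p ran from 0.0912 to 0.580 in CCI+YH and from 0.0988 to 0.686 in CCI+YZP. Both lowest values came from limma voom with quality weights, where 808 and 492 of 16522 genes had an adjusted p under 0.1.

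Relative to CCI, Per1 had a log2 fold change of 0.50 in CCI+YH (SE 0.216, edgeR adjusted p = 0.868). The estimate was 0.46 in CCI+YZP (SE 0.216, edgeR adjusted p = 0.714) and 0.31 in CCI+BZ (SE 0.215, edgeR adjusted p = 0.814). CCI replicates 1 and 3 decided their size. Leaving out CCI replicate 3 gave 0.24, 0.20 and 0.054 in this order, and leaving out CCI replicate 1 gave 0.75, 0.72 and 0.57. CCI against Sham gave 0.12 (SE 0.217, 95% interval -0.35 to 0.58, adjusted p = 0.812), which was -0.14 without CCI replicate 1 and -0.064 without Sham replicate 1. A contrast of all 3 treated groups, chosen after the values were seen, gave Per1 0.54 against Sham (SE 0.182, edgeR adjusted p = 0.221, 0.36 without Sham replicate 1). Over alternatives its adjusted p ran from 0.0537, in limma voom with quality weights, to 0.628, without Sham replicate 1. In that contrast 1.69% of all genes lay wholly above Sham and 0.0908% were called. Against CCI the same contrast gave 0.42 (SE 0.18, adjusted p = 0.643), which became 0.17 on leaving out CCI replicate 3 and 0.68 on leaving out CCI replicate 1. Of all genes 0% were called there.

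Per2, the paralogous repressor, was ordered differently from Per1 and had its highest group mean in untreated CCI. It stood at 17.4, 21.1 and 19.6 CPM in Sham and at 25.0, 23.2 and 26.9 CPM in CCI, with every CCI library above every Sham library. CCI+YZP libraries held 19.9, 23.3 and 16.1 CPM, CCI+YH libraries 25.1, 22.9 and 22.4 CPM, and CCI+BZ libraries 19.7, 16.6 and 19.3 CPM. CCI+BZ lay wholly below CCI and below CCI+YH, while CCI+YZP overlapped every other group. Group means were 18.5 ± 1.71 CPM in CCI+BZ, 19.4 ± 1.85 in Sham, 19.8 ± 3.58 for CCI+YZP, 23.5 ± 1.40 for CCI+YH and 25.0 ± 1.87 for CCI (SD, n = 3 each). No neighbours in this order were separated in their libraries.

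CCI against Sham gave Per2 a log2 fold change of 0.37 (SE 0.123, 95% interval 0.10 to 0.63, edgeR adjusted p = 0.167). In this comparison 13.2% of all genes were likewise higher without overlap and 17.9% had an unadjusted p under 0.05. Limma voom with sample quality weights gave an adjusted p of 0.0415, a call made for 5.69% of all genes, and the highest adjusted p over all alternatives was 0.803. That value came from a fit with a library covariate, the percentage of reads on the 3 genes with most reads, where the log2 fold change was 0.22. This percentage was 8.49% to 9.60% in Sham libraries and 6.78% to 7.55% in CCI libraries, so the groups did not overlap in it.

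Against CCI, Per2 had a log2 fold change of -0.43 in CCI+BZ (SE 0.123, 95% interval -0.70 to -0.17, edgeR adjusted p = 0.607, range over alternatives 0.261 to 0.999). Of all genes 5.88% were lower there without overlap. The value was -0.34 in CCI+YZP (SE 0.123, edgeR adjusted p = 0.637) and -0.21 there without CCI+YZP replicate 3. In CCI+YH it was -0.092 (SE 0.122, edgeR adjusted p = 0.96). These comparisons share the CCI libraries with each other and with CCI against Sham, so a high CCI mean enters all 4. Between preparations, at doses that differed, CCI+YH against CCI+BZ gave 0.34 (SE 0.124, 95% interval 0.074 to 0.61, adjusted p = 0.802), and 4.38% of all genes were higher there without overlap. CCI+YH against Sham gave 0.28 (SE 0.123, edgeR adjusted p = 0.364), also without overlap, as for 9.50% of all genes in that direction.

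Nr1d1, the nuclear receptor that represses Arntl, varied most within CCI+YH. It stood at 38.7, 35.0 and 41.7 CPM in Sham and at 42.8, 37.1 and 43.1 CPM in CCI. CCI+YZP libraries held 32.9, 43.4 and 35.5 CPM, CCI+YH libraries 41.6, 55.8 and 33.8 CPM, and CCI+BZ libraries 28.2, 37.6 and 32.4 CPM. All groups overlapped, and the highest library was CCI+YH replicate 2. In order, group means were 32.7 ± 4.72 CPM in CCI+BZ, 37.2 ± 5.50 in CCI+YZP, 38.5 ± 3.37 in Sham, 41.0 ± 3.38 in CCI and 43.7 ± 11.2 in CCI+YH (SD, n = 3 each), with neighbours within their spread. CCI+YH against CCI+BZ gave a log2 fold change of 0.42 (SE 0.163, 95% interval 0.072 to 0.77, edgeR adjusted p = 0.84), and 0.20 without CCI+YH replicate 2. CCI+BZ against CCI gave -0.33 (SE 0.162, adjusted p = 0.767) and CCI against Sham 0.093 (SE 0.161, adjusted p = 0.798). The last value was 0.029 without Sham replicate 2, 0.16 without CCI replicate 2 or without Sham replicate 3, 0.061 without CCI replicate 1 and 0.057 without CCI replicate 3. With the library covariate described for Per2 it was 0.29.

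Dbp, the output factor, was close in all Sham libraries and spread in each ligated group. It stood at 88.5, 83.0 and 81.8 CPM in Sham and at 84.5, 94.8 and 113 CPM in CCI. CCI+YZP libraries held 78.7, 118 and 78.3 CPM, CCI+YH libraries 101, 139 and 78.6 CPM, and CCI+BZ libraries 83.3, 107 and 69.9 CPM. Every pair of groups overlapped, and each treated group had a library below all Sham libraries and another above all of them. Group means were 84.5 ± 3.56 CPM in Sham, 86.9 ± 18.9 in CCI+BZ, 91.7 ± 22.9 in CCI+YZP, 97.4 ± 14.5 in CCI and 106 ± 30.6 in CCI+YH (SD, n = 3 each), again with neighbours within their spread. CCI against Sham gave a log2 fold change of 0.21 (SE 0.210, 95% interval -0.24 to 0.66, edgeR adjusted p = 0.638). It was 0.086 without CCI replicate 3. The largest of the 10 pairwise values was 0.33, for CCI+YH against Sham (SE 0.210, edgeR adjusted p = 0.533), and without CCI+YH replicate 2 it was 0.087.

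**Figure D2:**
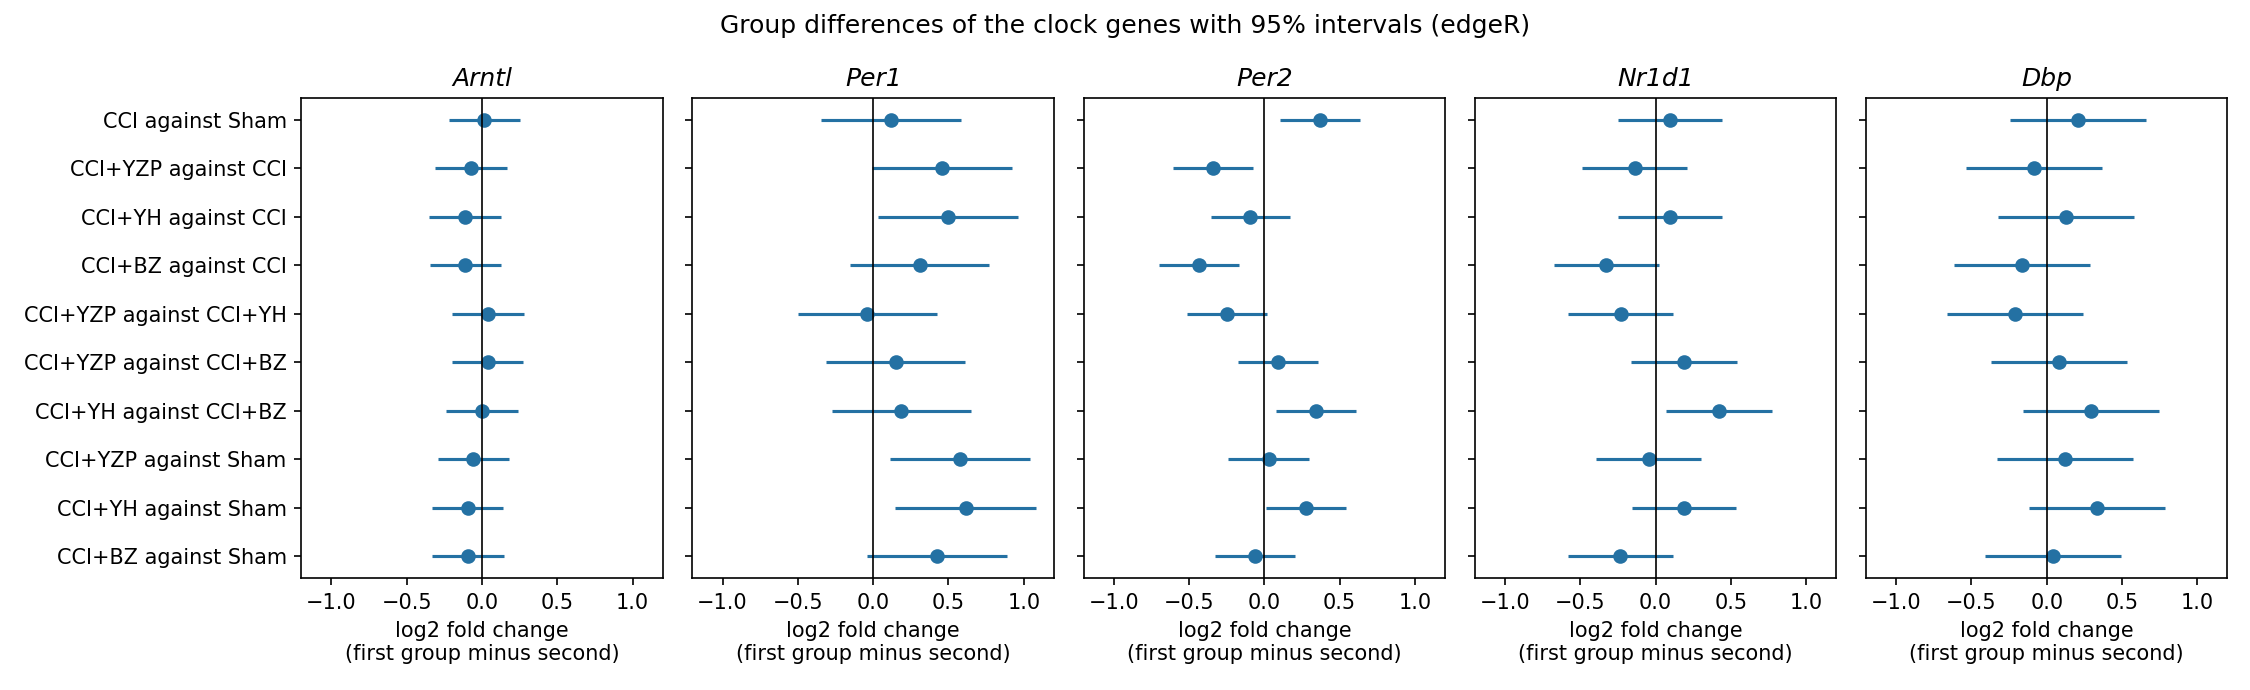
Log2 fold change of each clock gene (horizontal axis, first group minus second) in the 10 pairwise comparisons, with points for edgeR estimates and lines for 95% intervals that are not adjusted for the number of tests. Arntl stays near 0, Per1 leans above 0 in treated groups against Sham and CCI, and Per2 is above 0 in CCI against Sham and below 0 in CCI+YZP and CCI+BZ against CCI.

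The intervals, which are not adjusted for the number of tests, rest on a spread per gene that all 5 groups share. For Per1 the SE was 0.217 for CCI against Sham and 0.215 for CCI+YZP against CCI+YH. Its SD of log2 CPM was 0.376 in Sham and 0.577 in CCI, beside 0.0539 to 0.107 in treated groups. For Dbp this SD was 0.0601 in Sham and 0.413 in CCI+YH. Intervals may therefore be too narrow where the groups compared varied much, and too wide where they varied little. Over the 10 comparisons the largest fold inside a 95% interval was 1.62 for Per2, 1.71 for Nr1d1, 1.72 for Dbp and 2.11 for Per1, beside 1.27 for Arntl. Between single libraries the range was wider. The highest library exceeded the lowest by 2.47-fold for Per1, 1.99-fold for Dbp, 1.98-fold for Nr1d1, 1.67-fold for Per2 and 1.38-fold for Arntl.

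Variation between libraries of the same group was large for 3 of the 5 members. The SD of log2 CPM within groups was 0.32 for Per1, 0.29 for Dbp, 0.22 for Nr1d1, 0.16 for Per2 and 0.13 for Arntl, beside a median of 0.16 over all 16522 genes. Of the 1000 genes nearest in level, 97.6% had a smaller SD than Dbp, 97.4% a smaller SD than Per1 and 93.5% a smaller SD than Nr1d1. For Per2 this share was 72.5% and for Arntl 51.5%. For Per1 the spread lay in the groups without treatment, with a coefficient of variation of 24.6% in Sham and 36.4% in CCI against 3.72% to 7.35% in the treated groups. For Dbp it was 4.21% in Sham and 14.9% to 28.8% in the ligated groups. Differences in spread between groups of 3 were not tested.

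**Figure D3:**
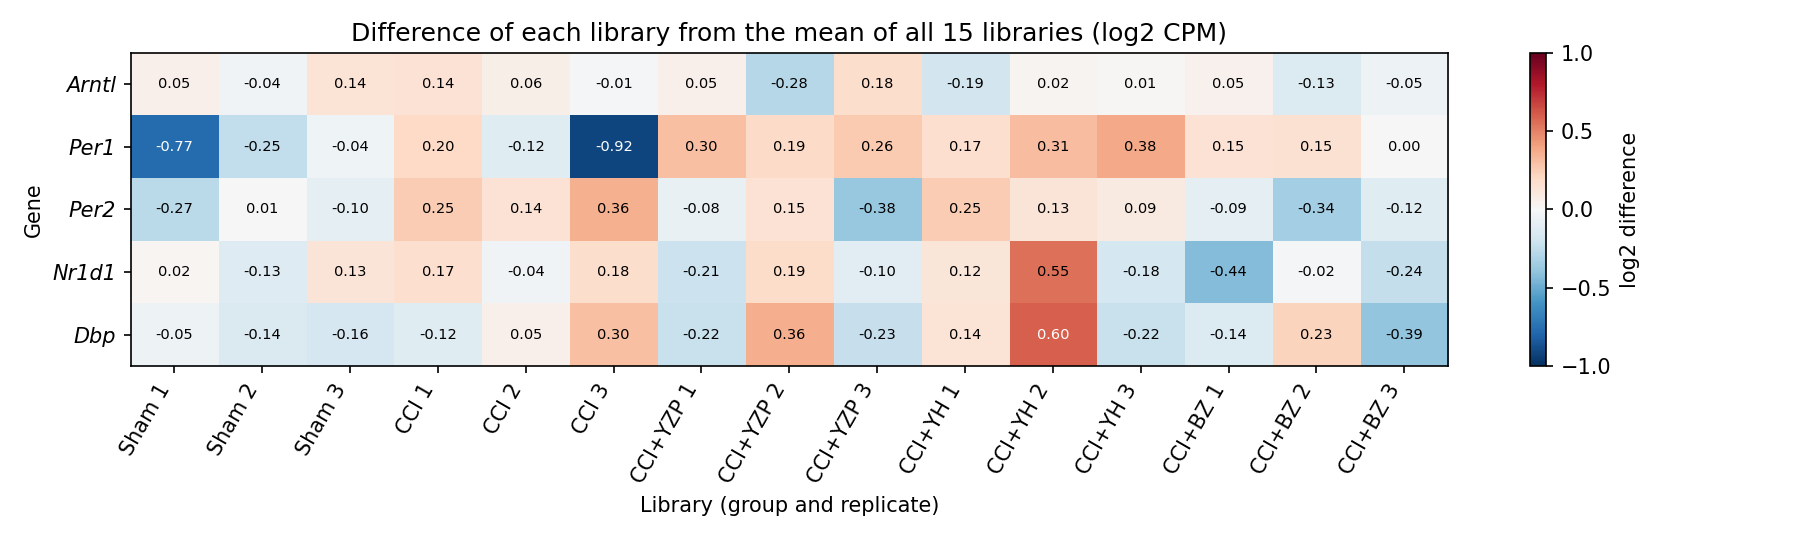
Difference of each library (columns) from the mean of all 15 libraries for each clock gene (rows), in log2 CPM, red above and blue below the mean. Nr1d1 and Dbp share their highest library (CCI+YH replicate 2, 0.55 and 0.60), and Per1 is lowest in CCI replicate 3 (-0.92), where Per2 is highest (0.36).

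Whether the clock genes varied together from library to library was asked over the 10 pairs of members in the 15 libraries. Nr1d1 and Dbp varied together. Their Pearson r of log2 CPM was 0.78 (permutation p = 0.00067, adjusted over the 10 pairs 0.0067) and Spearman's rho was 0.76 (permutation p = 0.00157, adjusted 0.0157). They lay on the same side of their medians in 11 libraries, on opposite sides in 2, and 2 libraries were a median. With group means removed r was 0.79 (exact within-group permutation p = 0.0202, adjusted 0.202). Without the 2 libraries farthest from the Nr1d1 median, CCI+YH replicate 2 and CCI+BZ replicate 1, r was 0.71 (permutation p = 0.00773, adjusted 0.0773), so the call rests in part on them. Without CCI+YH replicate 2 alone r was 0.63 (adjusted permutation p = 0.0768), and without any other single library it was 0.76 to 0.83 with the call kept.

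The other 9 pairs did not pass the test. Per2 had r = 0.44 with Nr1d1 (permutation p = 0.0971, adjusted 0.324, and rho 0.50, adjusted 0.191). It had r = 0.41 with Dbp (permutation p = 0.134, adjusted 0.334, and rho 0.53, adjusted 0.191). With group means removed, r of Per2 was 0.089 with Nr1d1 (exact within-group permutation p = 0.779) and 0.21 with Dbp (exact within-group permutation p = 0.588). Arntl had negative r with Dbp (-0.47, permutation p = 0.0793, adjusted 0.324; rho -0.40), Per2 (-0.24, rho -0.25) and Nr1d1 (-0.14, rho -0.093). Without the 2 libraries farthest from the Arntl median these were -0.27, 0.043 and 0.12, so the sign held for Dbp alone. The lowest Arntl library, CCI+YZP replicate 2 at 14.0 CPM, had the second highest Dbp, at 118 CPM. In the highest Dbp library, CCI+YH replicate 2 at 139 CPM, Arntl stood at its median over the 15 libraries, 17.4 CPM. With group means kept, Per1 had r of -0.11 with Per2, -0.098 with Dbp, -0.092 with Nr1d1 and -0.045 with Arntl. Their adjusted permutation p ran from 0.819 to 0.878. Without CCI replicate 3 the r of Per1 was 0.28 with Per2, 0.15 with Dbp and 0.063 with Nr1d1, so these signs depend on that library. With group means removed it was 0.34 with Arntl and -0.33 with Dbp (adjusted exact permutation p = 0.306 for each). It was then -0.094 with Per2 and -0.087 with Nr1d1.

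**Figure D4:**
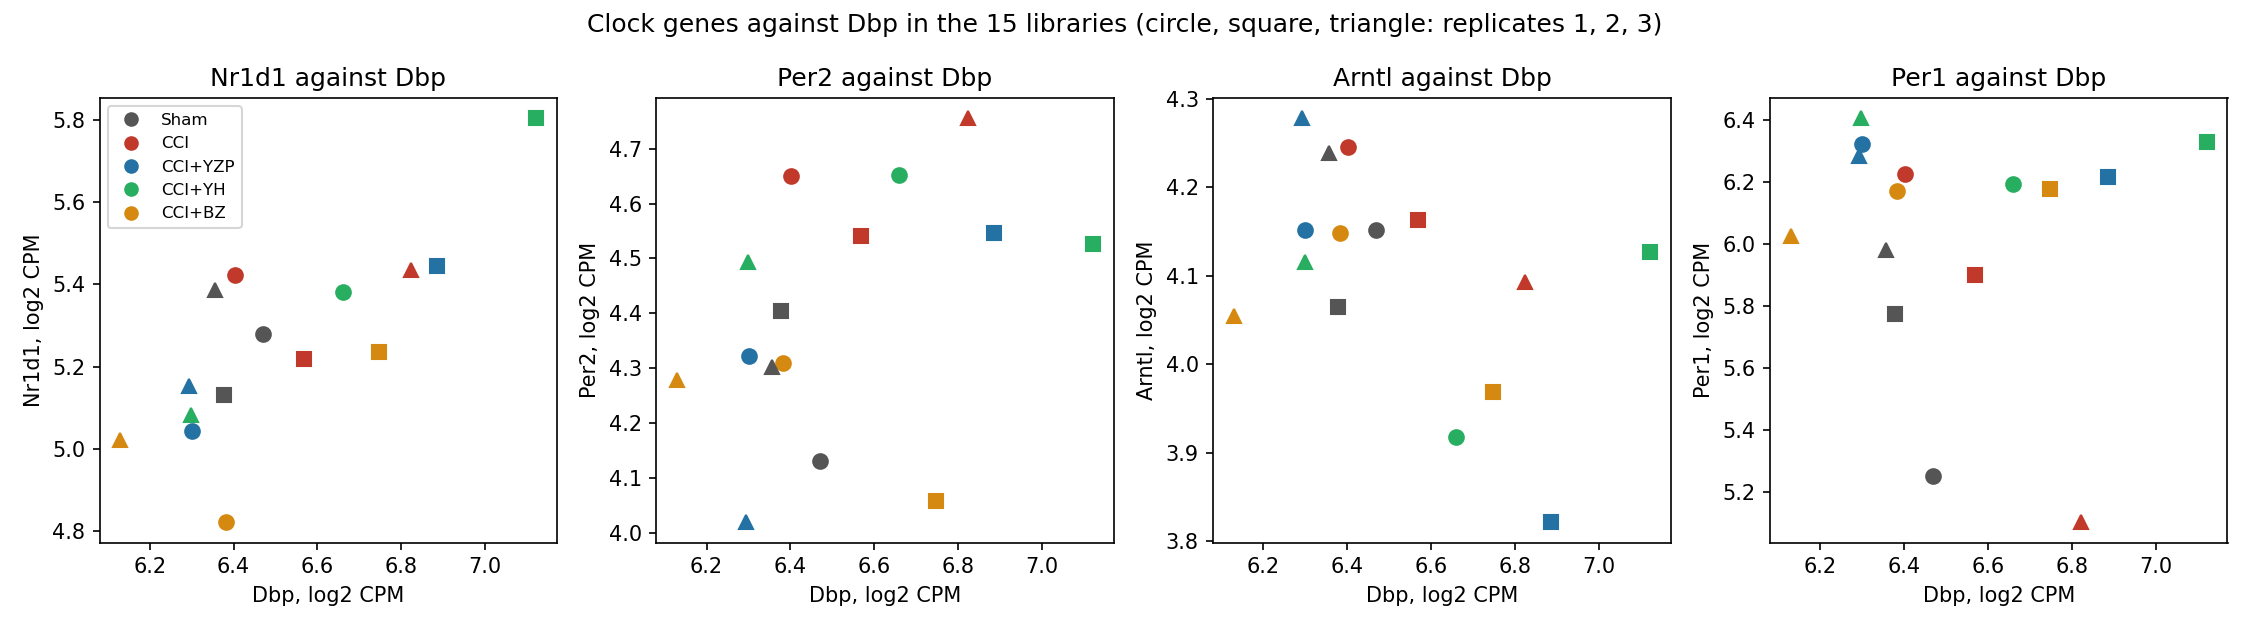
Log2 CPM of Nr1d1, Per2, Arntl and Per1 (vertical axes) against log2 CPM of Dbp (horizontal axes) in the 15 libraries, coloured by group, with a marker for each replicate number. Nr1d1 climbs with Dbp (r = 0.78), Arntl has an r of -0.47 with Dbp (adjusted permutation p = 0.324), and Per1 has an r of -0.098 with Dbp.

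Among all genes, Nr1d1 was the gene of rank 10 of 16521 in likeness to Dbp, by Pearson r over the 15 libraries, and Dbp was of rank 6 in likeness to Nr1d1. With group means removed these ranks were 34 and 80. Genes are not independent, and these ranks are a description. Arntl stood near the other end for Dbp, at rank 632 counted from the most opposed gene. Per1 lay in the middle of the Dbp ranking, with 36.9% of genes below it. With group means removed it was at rank 2642 counted from the most opposed gene. The genes most like Dbp were ENSRNOG00000036827 (r = 0.83) and ENSRNOG00000033609 (r = 0.81), and those most opposed were ENSRNOG00000036659 (r = -0.85) and ENSRNOG00000054514 (r = -0.84), for which the tables used here give no symbol.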

How the data were processed

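Total RNA of 15 cord samples was taken up in Trizol and made into libraries with a NEBNext Ultra kit, per the labels' protocols. The authors deposited raw counts per gene, in a table for each library. Build rn4 and DESeq2 1.16.1 are named per the submitters' processing notes; aligner, counter and annotation are not stated there. Members were found by identifier, with the symbols given for this work. The tables hold no symbols, and the RefSeq table (GRCr8, 47357 genes) gave 0 Ensembl matches. The pairing was therefore not checked, and lists kept by symbol (other clock genes, genes responsive to glucocorticoids, activity or temperature, cell type markers) were not analysed here. Members and lists were chosen with earlier results of these data known. Named genes were the 5 members in every comparison, plus 2 identifiers most like and 2 most opposed to Dbp.

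In edgeR 4.0.16 (R 4.3.3), filterByExpr with a minimum count of 10 left 16522 genes, which were scaled by TMM and fitted by glmQLFit and glmQLFTest over all 15 libraries, with 1 coefficient per group. Calls were made at a Benjamini-Hochberg adjusted p below 0.05 over these genes. The SE is the absolute log2 fold change divided by the root of F, and it rests on a spread per gene shared by all groups. Correlations used log2 CPM with a prior count of 2 and 100000 two-sided permutations, or all 7776 within groups. Alternatives were DESeq2 1.42.0, limma 3.58.1 (voom, also with quality weights), other scalings, filters, sample sets and thresholds, a replicate block, a covariate, and each library left out. Contrasts of all treated groups, and correlations with the first principal component or the covariate removed, were added after seeing the data. The edgeR fit was tried on simulated data for CCI against Sham, as was the permutation test over all libraries. The other tests were not checked in this way. Library totals were 15093246 to 22757104 counts. Libraries of a group differed by more than sampling noise (chi-square per gene 6.73 to 25.5 over 15 pairs). The labels do not state that each library is a separate rat, so p-values measure the spread between libraries.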

Additional observations from a re-analysis of the deposited data

How the results depend on the processing

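With 3 libraries a group precision is limited, and 0 of 5 members were called in each comparison under every alternative except 1. In CCI against Sham, limma voom with sample quality weights called 1 member, Per2. The number of correlated pairs was 1, was 0 with group means removed and 0 without the 2 libraries farthest from the median, was 2 with the library covariate (percentage of reads on the 3 genes with most reads) removed, chosen after seeing the data (Per2 with Nr1d1, r = 0.65, adjusted permutation p = 0.0409), and ranged from 0 to 1 without each library in turn. The causes were not tested. Over all genes, deviations from group means were no more alike between same-numbered libraries than between other-numbered ones. Same-numbered libraries correlated at -0.17 to 0.14 (median -0.0082) over 30 pairs. Other-numbered libraries correlated at -0.27 to 0.29 (median 0.0051) over 60 pairs. Of 15 libraries, 4 correlated best with a library of their own number. A replicate block left 0 members called, while genes called over the 10 pairwise comparisons summed to 18 in place of 32, and it gave Arntl in CCI+YH against CCI+BZ 0.0018 in place of -0.0015. Arntl there was also 0.0038 in limma voom and 0.00013 in DESeq2.

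Of 60 log2 fold changes, each uncalled, 23 took the other sign under some alternative, and those had a main size of at most 0.21. With quality weights Per1 was 0.0013 in CCI+YZP against CCI+YH, and Dbp -0.090 in CCI+YZP against CCI+BZ and -0.018 against Sham. With the covariate Nr1d1 was -0.017 in CCI+YH against CCI, 0.090 in CCI+YZP against Sham and 0.074 in all treated groups against Sham. Per2 was then -0.074 in CCI+YZP and -0.0014 in all treated groups, and Arntl 0.0041 in CCI+YZP, each against Sham. Without each library in turn, Arntl ranged from -0.027 to 0.061 in CCI against Sham, -0.18 to 0.048 in CCI+YZP against CCI, -0.064 to 0.16 in CCI+YZP against CCI+YH, -0.065 to 0.16 against CCI+BZ, -0.16 to 0.065 against Sham, and -0.045 to 0.063 in CCI+YH against CCI+BZ. Per1 ranged from -0.14 to 0.37 in CCI against Sham and -0.094 to 0.010 in CCI+YZP against CCI+YH. Per2 ranged from -0.044 to 0.22 in CCI+YZP against CCI+BZ, -0.11 to 0.16 against Sham, and -0.14 to 0.011 in CCI+BZ against Sham. Nr1d1 ranged from -0.12 to 0.25 in CCI+YH against CCI, -0.17 to 0.036 in CCI+YZP against Sham, -0.031 to 0.34 in CCI+YH against Sham and -0.10 to 0.032 in all treated groups against Sham. Dbp ranged from -0.31 to 0.033 in CCI+YZP against CCI, -0.12 to 0.30 in CCI+YH against CCI, -0.44 to 0.032 in CCI+YZP against CCI+YH, -0.15 to 0.26 against CCI+BZ, -0.11 to 0.22 against Sham, -0.14 to 0.17 in CCI+BZ against Sham and -0.13 to 0.078 in all treated groups against CCI.

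Correlations near 0 also took the other sign. Arntl with Per1 was 0.34 with group means removed and 0.096 as rho. Without the 2 libraries farthest from the Arntl median, Arntl was 0.17 with Per1, 0.043 with Per2 and 0.12 with Nr1d1. Leaving out instead the 2 libraries farthest from the Per1 median, Per1 was 0.011 with Per2, 0.16 with Nr1d1 and 0.21 with Dbp. Over all libraries its rho with Per2 was 0.011. Without each library in turn, Arntl ranged from -0.13 to 0.054 with Per1 and -0.23 to 0.00018 with Nr1d1, and Per1 from -0.37 to 0.28 with Per2, -0.31 to 0.063 with Nr1d1 and -0.30 to 0.15 with Dbp.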

Other observations

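Within each treated group, Dbp was highest in replicate 2, at 118 CPM in CCI+YZP, 139 CPM in CCI+YH and 107 CPM in CCI+BZ, and Nr1d1 was highest in the same libraries, at 43.4, 55.8 and 37.6 CPM. In CCI both genes were highest in replicate 3, at 113 and 43.1 CPM. In Sham, Dbp was highest in replicate 1 (88.5 CPM) and Nr1d1 in replicate 3 (41.7 CPM). Arntl was lowest in replicate 2 of CCI+YZP (14.0 CPM) and CCI+BZ (15.6 CPM), in replicate 1 of CCI+YH (15.004 CPM) and in replicate 3 of CCI (17.0 CPM). In Sham, Arntl was lowest in replicate 2 (16.6 CPM), where Nr1d1 was also lowest (35.0 CPM). Replicate 2 of CCI+YH, highest in Dbp and Nr1d1, was also highest in Arntl within its group (17.4 CPM). This was noticed after the values were seen and was not tested. Over all genes, deviations from group means of same-numbered libraries correlated at -0.17 to 0.14, a measure that cannot tell whether these few genes follow the number.

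With group means removed, Arntl and Per2 had r = -0.61 over the 15 libraries (exact within-group permutation p = 0.153, adjusted over the 10 pairs 0.306), against -0.24 with group means kept. Arntl and Dbp had r = -0.53 in that analysis (exact permutation p = 0.139, adjusted 0.306). Other pairs had smaller exact permutation p there. These were Nr1d1 with Dbp (r = 0.79, p = 0.0202, adjusted 0.202), Arntl with Per1 (r = 0.34, p = 0.0701, adjusted 0.306) and Per1 with Dbp (r = -0.33, p = 0.0968, adjusted 0.306). No pair passed the test with group means removed.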
